A study of Mus musculus with 20 samples.

Results

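The comparison described here set the lungs of 5 high-dose mouse dams against those of 5 low-dose dams, 10 of the 20 arrays of the study, chosen by the dose named in each array's title. High-dose dams had been given 67 µg of carbon black Printex 90, an industrial soot-like nanoparticle, on each of gestational days 7, 10, 15 and 18 (268 µg in all). Low-dose dams had been given 2.75 µg on the same days (11 µg in all). All were time-mated young adult female C57BL/6BomTac mice, the particles were dispersed in water and instilled into the trachea, and the dams were killed 26 to 27 days after exposure, once their pups had been weaned. Both groups had therefore been pregnant, lactating and instilled with particles. The series also holds 5 medium-dose dams (54 µg in all) and 5 water controls, which entered no test of the comparison and are given only beside it. The sources used here give no exact age.

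Each dam had its own two-colour array, with lung RNA labelled with Cy5 and pooled reference RNA (Stratagene) with Cy3, so every level below is the log2 ratio of lung over that reference and every difference is high minus low on the log2 scale. The arrays lay in pairs on 5 slides. In slide order 1 to 5, the high-dose dams were numbers 60, 62, 63, 64 and 65, and the low-dose dams 25, 27, 28, 31 and 36; values are listed in that order throughout. The pairs share a slide, not a litter. High-dose arrays always held position 4 of a slide and low-dose arrays position 2, so dose and position cannot be told apart. On high-dose arrays 68.7 to 77.9% of features had a Cy5 signal well above background, and on low-dose arrays 70.4 to 76.7%. The lung label was checked against markers of lung cells. Sftpc, the surfactant protein of alveolar type 2 cells, lay at 3.96 to 4.98 in high-dose and 4.28 to 5.22 in low-dose dams, and Scgb1a1, the secretory protein of club cells, at 4.40 to 5.12 in high-dose and 4.45 to 5.01 in low-dose dams, all far above the reference RNA. Whole lung was sampled, so a change in the number of cells of a type and a change in RNA per cell cannot be told apart.

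Insoluble particles that reach the alveoli are taken up mainly by macrophages, which can release chemokines that call neutrophils and monocytes from the blood. Epithelial cells add acute phase proteins and further chemokines, many of them under the control of the transcription factor NF-kappa B. Plasma cells, the antibody-secreting end stage of B cells, can gather in a lung that stays inflamed.

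Promoter sequences of 2 neutrophil chemokine genes and of 1 clock gene are shown because each holds a match to the motif searched. Most of the chemokine and clock genes searched held none, and only a selection of the genes described below was searched. They are the 250 bases before the RefSeq transcript start, on GRCm38.p6. Capitals in the chemokine promoters mark matches on either strand to GGGANNNNCC, the core of an NF-kappa B site, and capitals in the Tef promoter mark CACGTG, the E-box that clock factors bind. The Cxcl1 stretch is chr5:90890995-90891244 and the Cxcl3 stretch chr5:90785851-90786100, both on the plus strand. The Tef stretch, the one before the first of 2 listed starts, is chr15:81802423-81802672 on the plus strand.
Cxcl1: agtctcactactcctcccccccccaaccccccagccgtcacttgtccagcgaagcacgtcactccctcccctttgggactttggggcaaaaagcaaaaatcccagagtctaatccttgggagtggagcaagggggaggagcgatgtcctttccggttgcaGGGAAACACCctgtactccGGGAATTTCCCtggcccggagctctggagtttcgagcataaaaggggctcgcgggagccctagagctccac
Cxcl3: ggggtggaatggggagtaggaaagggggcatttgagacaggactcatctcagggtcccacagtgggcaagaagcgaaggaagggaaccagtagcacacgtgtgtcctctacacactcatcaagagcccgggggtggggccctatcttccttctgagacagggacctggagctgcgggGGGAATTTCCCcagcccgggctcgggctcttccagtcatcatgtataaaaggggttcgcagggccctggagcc
Tef: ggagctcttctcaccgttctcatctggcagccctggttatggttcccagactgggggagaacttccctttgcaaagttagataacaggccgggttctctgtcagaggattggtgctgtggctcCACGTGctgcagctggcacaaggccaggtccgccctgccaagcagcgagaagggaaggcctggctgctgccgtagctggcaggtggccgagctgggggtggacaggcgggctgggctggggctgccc
The run GGGAATTTCCC in Cxcl1 and Cxcl3 holds 2 overlapping matches, 1 on each strand. The kappa B letters were present in 17.6% of all 32851 promoters of this length and CACGTG in 6.02%. Of the 13 chemokine, acute phase, cytokine and NF-kappa B regulator genes searched, 4 held a kappa B match (Cxcl1, Cxcl3, Il1rn and Tnfaip3). Of the 10 clock genes searched, only Tef held CACGTG. These are matches of letters, not sites shown to be used.

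Of 20037 genes tested with limma, with the slide as a block, 2 passed a Benjamini-Hochberg adjusted p of 0.05, and both were higher at the high dose (0.00998% of genes). None passed in the lower direction (0.0%). At an unadjusted p under 0.05, 942 genes were higher and 1083 lower. Both called transcripts encode antibody chains. The description of LOC628098 in the files is an immunoglobulin heavy chain V region, the part of an antibody that meets antigen. Its levels were 2.40, 1.78, 1.90, 1.71 and 1.82 in high-dose lungs, against 1.07, 0.56, 0.54, 0.84 and 0.76 in low-dose lungs. It rose 2.25-fold (log2 1.17 ± 0.08, SE, n = 5 per group, limma adjusted p = 0.0252), and every high-dose dam lay above every low-dose dam.

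U10410 is described in the files as the heavy and light chain variable domains of a single chain antibody. Its levels were -0.18, 0.17, 0.01, -0.73 and -0.37 in high-dose lungs, against -1.26, -1.31, -1.12, -1.56 and -1.47 in low-dose lungs, again with no overlap. It rose 2.19-fold (log2 1.13 ± 0.09, limma adjusted p = 0.0343). An exact test over the 32 sign flips of 5 slides cannot go below p = 0.0625, and that over all groupings of the 10 dams into 5 and 5 not below 0.00794. Both transcripts reached these floors, but both had been picked for their small p in the same data. Any gene higher (5.13% of all genes) or lower (5.67%) on all 5 slides reaches the first floor. Any gene without overlap, higher (1.2%) or lower (0.784%), reaches the second, so the floors add no support. The calls depended on the scale and on single slides: none was left with normexp background correction, with the scanner software's ratio or in the Cy5 channel alone, nor without slide 2, 3 or 5. Without slide 1 there were 8 calls, 6 of them higher, and without slide 4 there were 4, all higher. U10410 was not called without slide 1, at an adjusted p of 0.0543.

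**Figure D1:**
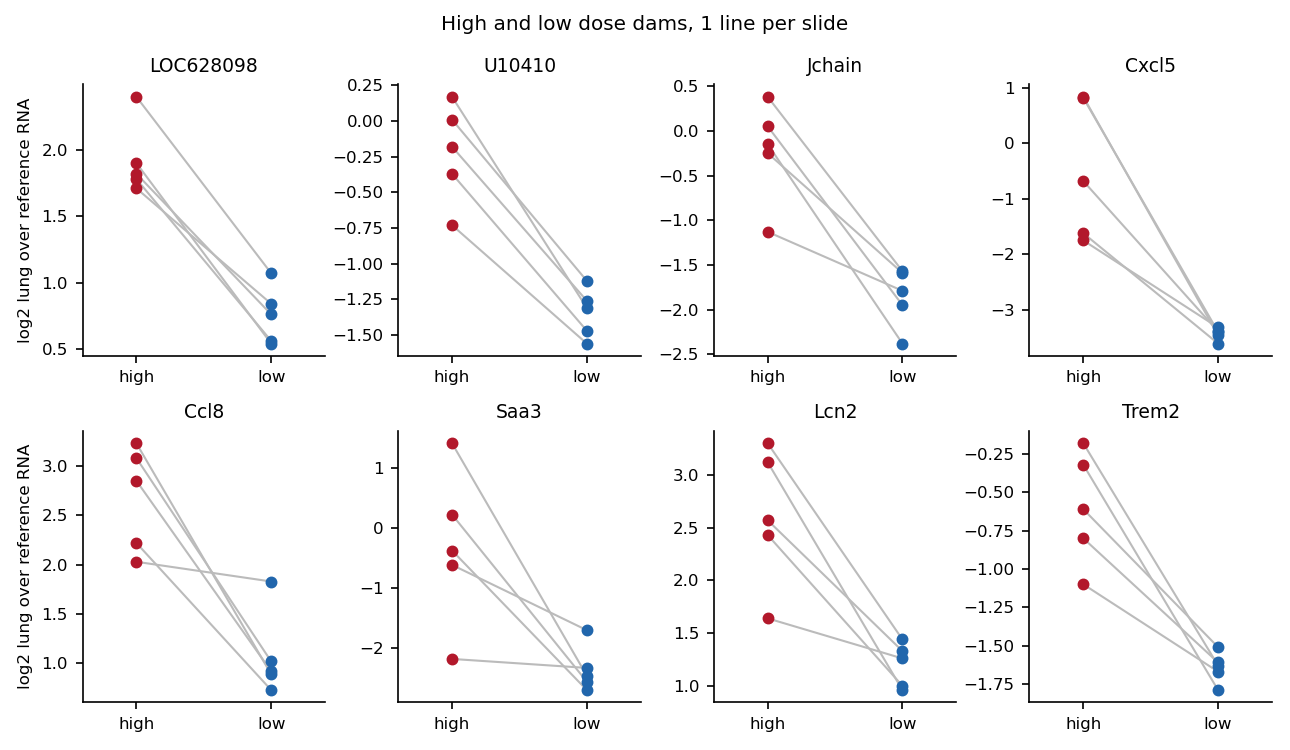
Level of 8 genes (log2 lung over reference RNA) in the 5 high-dose dams (left of each panel, red) and the 5 low-dose dams (right, blue), with 1 line joining the dams of a slide. LOC628098, U10410, Jchain, Cxcl5, Ccl8, Lcn2 and Trem2 show no overlap between the groups, while for Saa3 the lowest high-dose dam, at -2.18, lay below the highest low-dose dam, at -1.70.

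Antibody chain transcripts taken as a group pointed the same way. The group was assembled from the files' descriptions after their values had been seen. It includes both called transcripts, so its counts are a description. Of 86 antibody chain transcripts measured, 83 had a difference above 0, as did 9214 of all 20037 genes tested. The median of the 86 was 0.60, against -0.01 over all genes. Those not above 0 were an IgD constant region (-0.36), a membrane-bound IgE (-0.07) and an IgM heavy chain (-0.03). A second IgM constant region transcript was at 0.32. On all 5 slides 22 of the 86 were higher and none was lower, where 5.13% of all genes were higher and 5.67% lower on all 5. In 14 every high-dose dam lay above every low-dose dam, which held for 1.2% of all genes; the reverse held for none of them and for 0.784% of all genes. Variable region transcripts share much of their sequence, so these probes are not independent readings.

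The antibody difference was not the same on every slide. The mean over the 86 transcripts was -0.13 on slide 1, with 32 of them higher, 1.38 on slide 2, 0.88 on slide 3, 0.25 on slide 4 and 0.90 on slide 5. One gene of the Igkv1 family of kappa light chain V genes had levels of 2.64, 1.72, 2.62, 2.73 and 1.47 in high-dose lungs, against 1.20, 0.96, 0.66, 1.84 and 0.39 in low-dose lungs. It was higher on every slide although the groups overlapped (1.23 ± 0.17, limma adjusted p = 0.207).

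**Figure D2:**
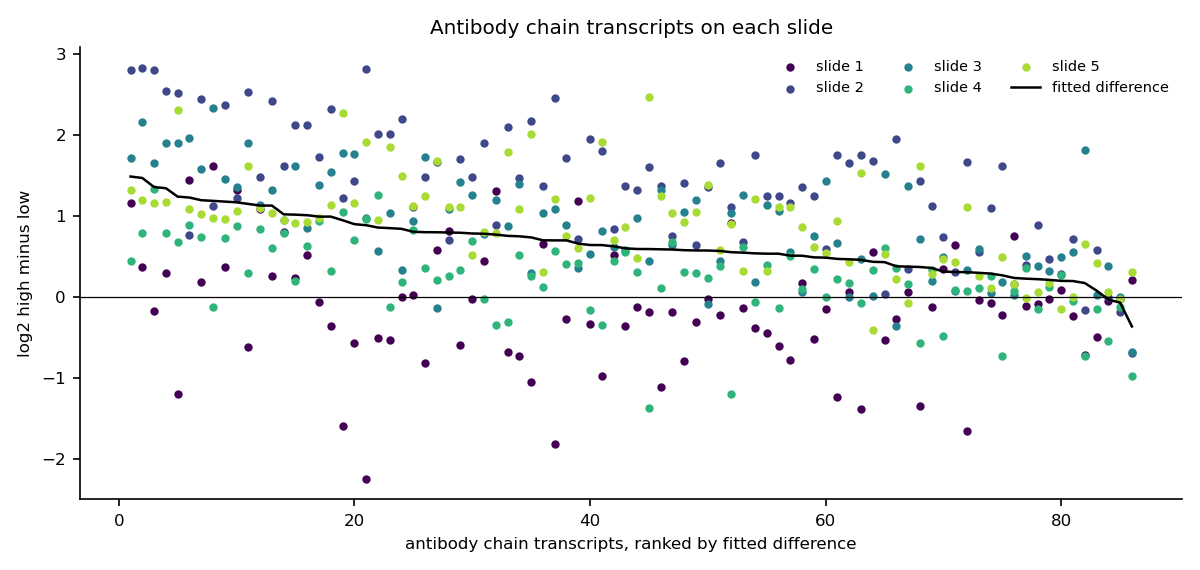
Difference (log2 high minus low) of each of the 86 antibody chain transcripts on each of the 5 slides, ranked by the fitted difference (black line). Slide 2 gives most of the highest points, and on slide 1 only 32 of the 86 transcripts lie above 0.

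Genes of the plasma cell's secretory machinery accompanied the antibody chains. Jchain, the joining chain that links secreted antibodies into polymers, was at -0.25, 0.38, 0.05, -1.13 and -0.15 in high-dose lungs, against -1.59, -1.57, -1.95, -1.79 and -2.38 in low-dose lungs. The groups did not overlap and the difference was 1.64 ± 0.22 (limma adjusted p = 0.207); a second Jchain probe gave 1.69. Derl3, which helps to clear misfolded proteins from the endoplasmic reticulum of secretory cells, averaged -1.27 ± 0.30 in high-dose and -1.96 ± 0.13 in low-dose lungs (SD, n = 5 each). Tnfrsf17, the receptor that sustains plasma cells, averaged 0.24 ± 0.32 in high-dose and -0.60 ± 0.20 in low-dose lungs, also without overlap.

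The shares over all genes to set beside counts on all 5 slides, here and in every later list, are 5.13% higher and 5.67% lower. Beside counts of members above 0 stand the 9214 of 20037 genes with a fitted difference above 0. On single slides 9057 to 10808 genes lay above 0. Of the 27 measured members of the B cell and plasma cell list, 23 lay above 0 with a median of 0.18. On all 5 slides 4 were higher (Jchain, Derl3, Tnfrsf17 and Ighg1) and none lower. The median was 0.36 without slide 4, where the list mean was -0.16 and 10 of 27 members lay above 0, and 0.09 without slide 5. Cd79a, a signalling chain of the B cell receptor, ranged from 0.00 to 0.57 in high-dose and from -0.07 to 0.37 in low-dose lungs. Pigr, which carries polymeric antibody across epithelium, was higher on 4 of 5 slides (0.57 ± 0.19, limma adjusted p = 0.406), and was lower, at -0.20, on the scanner software's ratio.

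The chemokine Cxcl5 had the largest difference of the genes named here. Cxcl5, which attracts neutrophils through the receptor Cxcr2, was at -1.75, 0.82, 0.84, -1.62 and -0.68 in high-dose lungs, against -3.32, -3.40, -3.46, -3.61 and -3.39 in low-dose lungs. Every high-dose dam was above every low-dose dam, and the high-dose dams themselves spread over more than 2 log2 units while the low-dose dams hardly varied. The difference was 2.96 ± 0.42, a ratio of 7.77 (limma adjusted p = 0.207). Cxcl1, a second Cxcr2 ligand, was at -3.50, -2.47, -1.84, -3.72 and -3.29 in high-dose lungs, against -4.34, -4.26, -4.09, -4.11 and -4.22 in low-dose lungs. The groups did not overlap, and dams 62 and 63 were again the highest (1.24 ± 0.26, adjusted p = 0.263).

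Cxcl3, another ligand of that receptor, was well above background on 5 high-dose but only 2 low-dose arrays. Its difference of 0.71 ± 0.15 (limma adjusted p = 0.271) is limited by that floor. Cxcl3 was kept for testing, and so counted in its list, only through the high-dose group. On the scanner software's ratio the difference was 3.26. Cxcl9, which attracts T cells through Cxcr3, was higher on 4 of 5 slides (0.65 ± 0.20, adjusted p = 0.37). Of 15 CXC chemokines measured, 4 were higher on all 5 slides and none lower, the fourth being Cxcl10, a further Cxcr3 ligand, at 0.83. Ppbp and Cxcl15, named after their values were seen, did not rise, at -0.14 and -0.03. The median of the list, 0.15, lay close to 0 and was -0.001 without slide 5.

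Among the CC chemokines, which act mostly on monocytes, macrophages and lymphocytes, 7 of 16 measured were higher on all 5 slides and 1, Ccl27a, was lower on all 5 (-0.23). Of the 16, 13 lay above 0, with a list median of 0.40. In 6 of them every high-dose dam exceeded every low-dose dam, which held for 1.2% of all genes. Ccl8 was at 2.03, 2.85, 3.23, 2.22 and 3.08 in high-dose lungs, against 1.83, 0.92, 0.89, 0.73 and 1.02 in low-dose lungs. Low-dose dam 25 was well above the other low-dose dams, so slide 1 gave only 0.20 of a fitted difference of 1.60 ± 0.28 (limma adjusted p = 0.234).

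Ccl7, a monocyte attractant, averaged -2.29 ± 0.72 in high-dose and -3.38 ± 0.14 in low-dose lungs (SD, n = 5 each), and its second probe differed by 0.98. Ccl9, produced by myeloid cells of the mouse, averaged 0.71 ± 0.46 in high-dose and -0.31 ± 0.18 in low-dose lungs. Ccl3, a macrophage product that attracts other leukocytes, averaged -2.02 ± 0.39 in high-dose and -2.65 ± 0.10 in low-dose lungs. These 3 genes did not overlap between the groups, with adjusted p-values of 0.249 to 0.263 by limma. Ccl2, the main ligand of the monocyte receptor Ccr2, was higher on all 5 slides (0.89 ± 0.22) but overlapped; it lies just outside the 4 members of smallest p and was named after its values were seen.

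Receptors by which macrophages sense particles, lipids and antibody complexes were measured next. Trem2, a lipid-sensing receptor, was at -1.10, -0.18, -0.61, -0.80 and -0.32 in high-dose lungs, against -1.67, -1.63, -1.51, -1.61 and -1.79 in low-dose lungs. The groups were apart by more than the low-dose range (1.04 ± 0.14, limma adjusted p = 0.207), and a second probe gave 0.80. Clec5a, an activating C-type lectin of myeloid cells, was at -0.15, 0.67, 0.48, 0.06 and 0.28 in high-dose lungs, against -0.74, -0.76, -0.54, -0.54 and -0.72 in low-dose lungs. Its difference was 0.93 ± 0.13 without overlap, but its other probe gave only 0.21.

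Clec4d, a C-type lectin that binds glycolipids, averaged -1.04 ± 0.31 in high-dose and -1.93 ± 0.25 in low-dose lungs (SD, n = 5 each). Ms4a7, a membrane protein of macrophages, averaged 0.97 ± 0.45 in high-dose and -0.08 ± 0.17 in low-dose lungs, with 0.98 by its second probe against 1.05 by the first. Ctss, a lysosomal protease of macrophages and dendritic cells, averaged 2.35 ± 0.38 in high-dose and 1.71 ± 0.17 in low-dose lungs, and none of these 3 genes overlapped between the groups. Of the 42 measured genes of particle uptake and lipid handling, 29 lay above 0, 13 were higher on all 5 slides and 1, the fatty acid receptor Cd36, was lower on all 5 by a fitted -0.08. The list median was 0.16, and 0.29 without slide 1. Its mean difference was 0.05 on slide 1 and 0.15 on slide 4, against 0.55, 0.37 and 0.43 on slides 2, 3 and 5.

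Fcgr1, the high-affinity receptor for IgG, was at 0.28, 0.06, 0.13, 0.31 and -0.25 in high-dose lungs, against -0.31, -0.65, -0.26, -0.32 and -0.48 in low-dose lungs. Every high-dose dam lay above every low-dose dam (0.51 ± 0.08, limma adjusted p = 0.207). Fcgr2b, the inhibitory IgG receptor, gave 0.54, 0.49 and 0.55 by its 3 probes. Tlr6, a toll-like receptor for bacterial lipopeptides, differed by 0.40 ± 0.08. In the toll-like receptor and LPS sensing list, 5 of 22 measured genes were higher on all 5 slides, at a list median of 0.14. These 5 include Fcgr1 and Fcgr2b, which are IgG receptors. The 1 gene lower on all 5 slides was a toll-like receptor, Tlr3 (-0.155).

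Markers of macrophage identity separated into those that were higher and those that were lower. Adgre1 (F4/80) averaged 0.97 ± 0.27 in high-dose and 0.40 ± 0.18 in low-dose lungs (SD, n = 5 each), although its second probe gave only 0.15. Aif1, an actin-binding protein of macrophages, gave 0.30 by both probes. Krt79, a keratin that marks resident alveolar macrophages in mice, was at 3.15, 2.03, 2.49, 2.67 and 2.45 in high-dose lungs, against 3.22, 3.03, 2.96, 3.09 and 3.01 in low-dose lungs, lower on every slide (-0.50 ± 0.12, limma adjusted p = 0.3), and at -0.18 after normexp correction.

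Siglecf, a lectin of alveolar macrophages and eosinophils, was also lower on every slide (-0.36 ± 0.11, limma adjusted p = 0.367), but was 0.46 higher on the scanner software's ratio. Ear1, a ribonuclease of the same cells, was lower on 4 of 5 (-0.35 ± 0.10). After normexp correction these 2 genes were at -0.07 and -0.02. Marco, a scavenger receptor of alveolar macrophages, ranged from 4.09 to 4.81 in high-dose and from 4.42 to 4.72 in low-dose lungs, and Mrc1, the mannose receptor, from 3.36 to 3.67 in high-dose and from 3.31 to 3.85 in low-dose lungs. Of the 23 identity markers measured, 5 were higher and 2 lower on all 5 slides. Acod1, which makes itaconate in activated macrophages, had the smallest unadjusted p of the genes with a symbol, at 7.06e-05. It was at -3.68, -2.36, -2.0, -2.70 and -3.06 in high-dose lungs, against -4.21, -3.74, -3.50, -3.78 and -4.05 in low-dose lungs (1.09 ± 0.14, adjusted p = 0.207), with 1 high-dose dam inside the low-dose range.

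Acute phase proteins were led by Lcn2 and the serum amyloid A genes. Lcn2, which withholds iron from bacteria by binding their siderophores, was at 1.64, 3.12, 3.30, 2.43 and 2.57 in high-dose lungs, against 1.26, 0.96, 1.44, 1.00 and 1.33 in low-dose lungs. The groups did not overlap (1.41 ± 0.23, limma adjusted p = 0.207). Saa3, the serum amyloid A made locally in mouse tissues, was at -2.18, -0.37, 1.42, -0.61 and 0.23 in high-dose lungs, against -2.33, -2.70, -2.46, -1.70 and -2.56 in low-dose lungs. High-dose dam 60 was within the low-dose range, and the other 4 were above it (2.05 ± 0.49, adjusted p = 0.3).

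Saa1 gave 1.05 by the probe used and 0.30 by its second probe, and Serpina3n, a protease inhibitor, 0.29 ± 0.08. Of 22 acute phase genes measured, these 4 were higher on all 5 slides, none was lower, and the list median was 0.23. In the complement list C3ar1, the receptor for the C3a fragment, did not overlap between the groups (0.29 ± 0.06), and C1qb, a chain of the C1q trigger made by macrophages, was higher on all 5 slides (0.54 ± 0.17). C3, the central component, was higher on 4 of 5 (0.48 ± 0.15, limma adjusted p = 0.375). The other complement genes were closer to 0, at a list median of 0.08 over 25 genes.

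Of 28 cytokines and regulators measured, none passed the test. The fitted difference lay above 0 for 26 of them, 10 were higher on all 5 slides and none was lower on all 5, at a median of 0.18. The list mean was 0.05 on slide 4, where 13 of 28 members lay above 0, and 0.14 to 0.34 on the other slides. Il1rn, the antagonist of the interleukin 1 receptor, was at 0.29, 0.95, 0.94, 0.66 and 0.63 in high-dose lungs, against -0.04, -0.04, 0.20, 0.19 and 0.06 in low-dose lungs (0.62 ± 0.10, limma adjusted p = 0.207), without overlap, and its second probe gave 0.30. Csf2, the growth factor on which alveolar macrophages depend, was at 1.38, 2.14, 2.29, 1.86 and 2.01 in high-dose lungs, against 1.32, 1.42, 1.26, 1.22 and 1.21 in low-dose lungs. High-dose dam 60 lay inside the low-dose range (0.65 ± 0.13, adjusted p = 0.263).

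Tnf averaged -0.62 ± 0.22 in high-dose and -1.03 ± 0.06 in low-dose lungs (SD, n = 5 each), and Tnfaip3, which shuts off NF-kappa B signalling, averaged 0.02 ± 0.17 in high-dose and -0.33 ± 0.11 in low-dose lungs. Bcl3, a nuclear partner of NF-kappa B, was at 0.05, 0.22, 0.43, 0.21 and -0.13 in high-dose lungs, against -0.19, -0.48, -0.24, -0.47 and -0.62 in low-dose lungs. It did not overlap (0.55 ± 0.08, limma adjusted p = 0.207). Interferon-stimulated genes differed less. Oas2 and Oas1a, sensors of viral RNA, were 0.44 ± 0.07 and 0.41 ± 0.07 higher. Of 36 members 3 were higher on all 5 slides, where 5.13% of all genes were, at a list median of 0.12. The list mean was 0.355 on slide 1 but -0.155 on slide 5, where 7 of 36 members lay above 0.

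Enzymes that cut matrix included Mmp12, the macrophage elastase, which was at 0.04, 1.54, 1.41, 0.36 and 0.64 in high-dose lungs, against -0.09, -0.17, 0.06, -0.07 and 0.02 in low-dose lungs. Dams 62 and 63 were highest and dam 60 was inside the low-dose range (0.85 ± 0.22, limma adjusted p = 0.342). Mmp14, a membrane-bound collagenase, gave 0.40 and 0.34 by its probes, and Adam8, a metalloproteinase of leukocytes, 0.57 ± 0.15 with 4 of 5 slides higher. Mmp10 was well above background on 4 high-dose and 2 low-dose arrays (0.26 ± 0.06). Of 20 genes in the list 6 were higher and none lower on all 5 slides. Mmp10 is counted there, but was kept for testing only through the high-dose group.

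One of those 6 was Timp1, an inhibitor of metalloproteinases, with 0.64, 0.43 and 0.27 by its 3 probes. Matrix genes as a group moved little, with a median of 0.04 over 39 members, 4 of them higher on all 5 slides; Spon2, a secreted matrix protein, differed by 0.74 ± 0.24 with low-dose dams spread from -2.65 to 0.11. Glipr2, a Golgi-associated protein, was the remaining gene named by its small p and did not overlap (0.50 ± 0.07, limma adjusted p = 0.207). Ly6f, a surface protein of the Ly6 family named after its values were seen, was at 0.98, 2.48, 2.75, 1.86 and 2.01 in high-dose lungs, against 0.46, 0.24, 0.16, 0.32 and 0.32 in low-dose lungs (1.71 ± 0.27, adjusted p = 0.207). Ch25h, which makes 25-hydroxycholesterol in macrophages, differed by 0.79 ± 0.20. It was among 3 of 29 sterol genes higher on all 5 slides, against 5.13% of all genes.

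**Figure D3:**
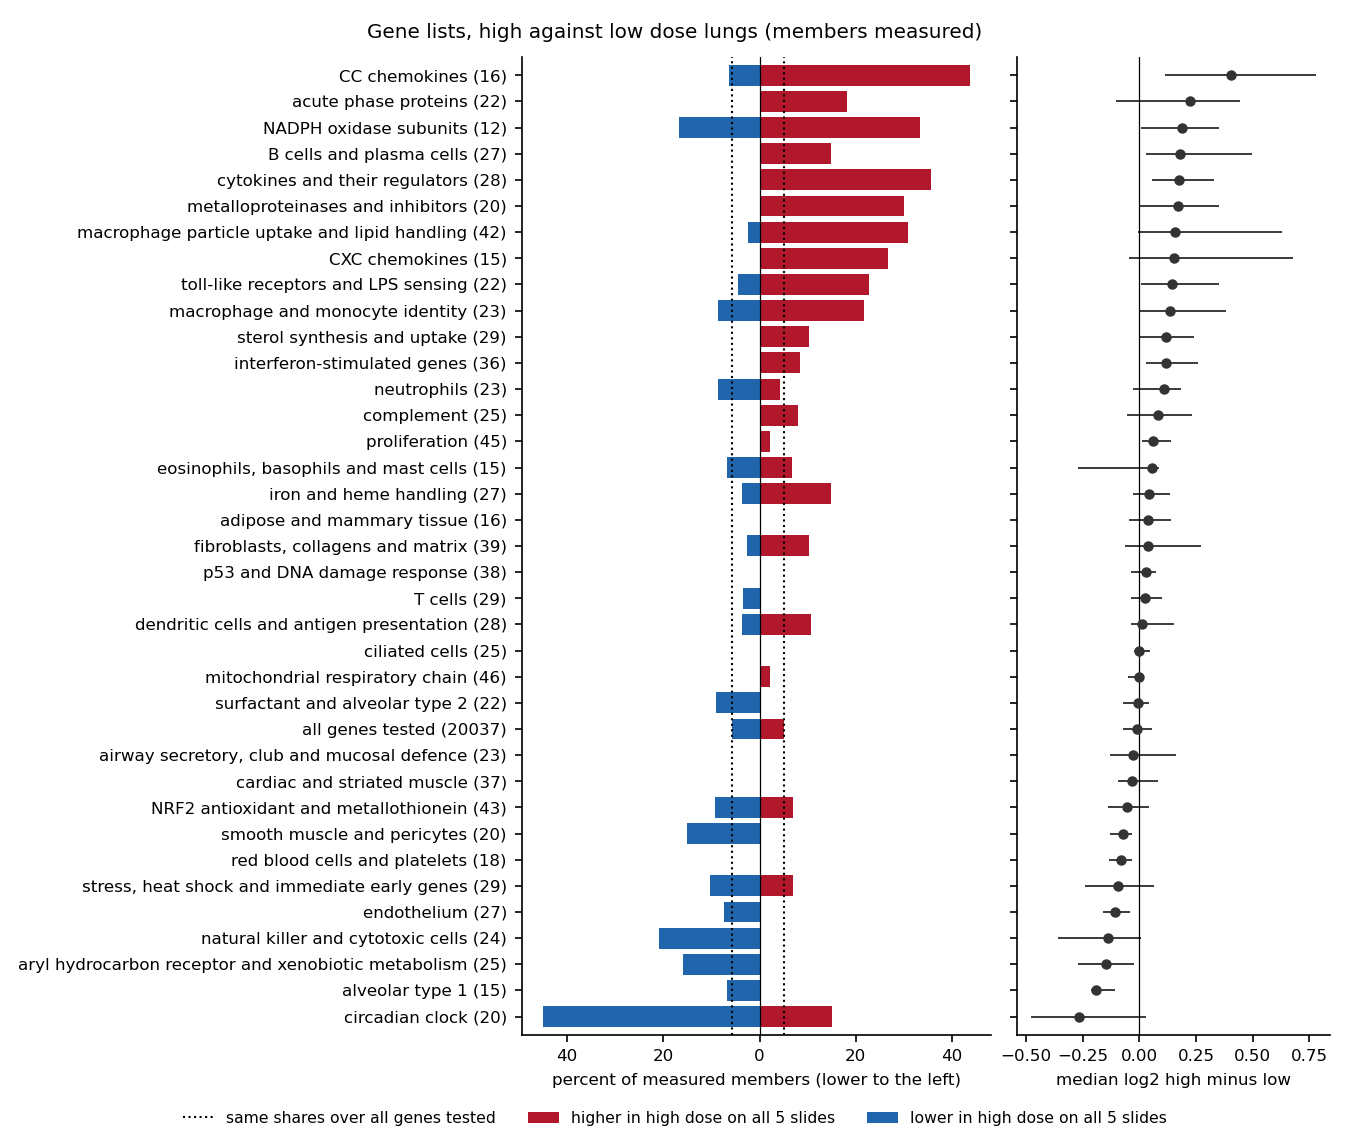
Left, percent of each list's measured members that were higher (red, to the right) or lower (blue, to the left) in high-dose than in low-dose lungs on all 5 slides, with dotted lines at the 5.13% and 5.67% found over all 20037 genes. Right, median and quartiles of the log2 difference; the CC chemokines are at the top, at 0.40, and the clock genes at the bottom, at -0.27.

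Genes of oxidant production and of the response to it did not move as 1 group. Noxo1, the organiser subunit of NADPH oxidase 1, was at 0.74, 2.07, 2.16, 1.22 and 1.56 in high-dose lungs, against 0.46, 0.46, 0.00, 0.21 and 0.22 in low-dose lungs. It did not overlap (1.28 ± 0.24, limma adjusted p = 0.249). Ncf4, a cytosolic subunit of the phagocyte oxidase, averaged -0.62 ± 0.11 in high-dose and -1.08 ± 0.15 in low-dose lungs (SD, n = 5 each). Nox4, an oxidase of kidney, vessel and fibroblast cells, went the other way, at 2.80, 2.57, 2.29, 2.55 and 2.44 in high-dose lungs, against 2.96, 2.81, 3.16, 3.05 and 3.10 in low-dose lungs (-0.49 ± 0.11, adjusted p = 0.272). Nox4 was at -0.06 after normexp correction, and at -0.43 in that setting with slide 2 left out; its second probe gave -0.34.

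Of the 43 NRF2 and metallothionein genes, which answer oxidant stress, 3 were higher and 4 lower on all 5 slides, at a median of -0.05. Over all genes 5.13% were higher and 5.67% lower on all 5. Hmox1, the heme-degrading enzyme often used as a marker of oxidant stress, was higher by 0.12 to 0.24 on every slide (0.17 ± 0.05, limma adjusted p = 0.367). Slc7a11, the cystine transporter, differed by 0.53 ± 0.12, while its other probes gave -0.004 and 0.08. The probe used was well above background on 4 high-dose arrays and 1 low-dose array. Slc7a11 was therefore kept for testing, and counted among the 3 higher, only through the high-dose group. Genes of the p53 response had a median of 0.03 over 38 members and none was higher or lower on all 5 slides; Gadd45g, a growth arrest gene, was the member of smallest p (0.34 ± 0.09).

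Genes of the aryl hydrocarbon receptor and of xenobiotic metabolism were mostly lower, with 5 of 25 above 0, 4 lower on all 5 slides, none higher and a median of -0.15, or -0.08 without slide 2. Cyp1a1, the classic target of that receptor, was at 0.97, 1.49, 0.73, 0.62 and 0.88 in high-dose lungs, against 1.99, 1.75, 1.07, 1.58 and 1.87 in low-dose lungs. Dam 62 overlapped with low-dose dam 28, and each slide was lower (-0.72 ± 0.14, limma adjusted p = 0.249). Cyp2b10, a target of the receptor CAR, was lower on all 5 slides (-0.35 ± 0.09), but 0.03 higher after normexp correction. Stress genes had a median of -0.09, with Hspa8, a constitutive heat shock chaperone, lower on all 5 slides (-0.29 ± 0.07).

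Transcripts of natural killer and cytotoxic cells were lower in part. Prf1, the pore-forming protein of their granules, was at 1.66, 1.42, 1.15, 1.12 and 1.41 in high-dose lungs, against 2.02, 1.69, 1.65, 1.57 and 2.09 in low-dose lungs. It was lower on each slide, with 1 high-dose dam inside the low-dose range (-0.45 ± 0.07, limma adjusted p = 0.207). Gzmb, the granule protease granzyme B, was at 1.89, 1.68, 1.74, 1.69 and 1.73 in high-dose lungs, against 2.17, 1.78, 2.18, 2.30 and 2.44 in low-dose lungs (-0.43 ± 0.10, adjusted p = 0.272).

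Klra8, a Ly49 receptor of natural killer cells, was lower on 4 of 5 slides (-0.61 ± 0.16, limma adjusted p = 0.331). Klra16, another Ly49 gene, did not overlap (-0.38 ± 0.06) but its second probe gave -0.14, and Ly49 genes are close relatives that probes may not separate. Klrb1a, an NK1.1-family receptor, averaged 1.43 ± 0.15 in high-dose and 1.78 ± 0.12 in low-dose lungs (SD, n = 5 each). Over 24 members the median was -0.14, 5 were lower on all 5 slides and none higher. The list mean was 0.05 on slide 1 and 0.04 on slide 2, against -0.26, -0.33 and -0.38 on slides 3, 4 and 5, and the list median was -0.07 without slide 5. After normexp correction the list median was 0.06, and Prf1 was at -0.14, Gzmb at -0.09, Klra8 at -0.18, Klra16 at -0.06 and Klrb1a at -0.01. With slide 2 left out of that setting these 5 genes were at -0.43, -0.44, -0.60, -0.32 and -0.32. The median of 29 T cell genes was 0.03, with 1 of them lower and none higher on all 5 slides.

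Neutrophil genes were mixed. Camp, the cathelicidin stored in neutrophil granules, had the smallest unadjusted p among the lower genes, at 8.56e-05. It was at 0.67, 0.57, 0.85, 0.13 and 0.28 in high-dose lungs, against 1.30, 0.90, 1.61, 1.04 and 1.02 in low-dose lungs (-0.68 ± 0.09, limma adjusted p = 0.207), without overlap. Ngp, another granule protein made in immature neutrophils, was lower on all 5 slides (-0.38 ± 0.10). Fpr1, a receptor for bacterial peptides, was lower on 4 of 5 (-0.26 ± 0.08), and 0.08 higher after normexp correction.

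Markers of mature neutrophils did not separate the groups. S100a8 ranged from 1.89 to 3.77 in high-dose and from 1.82 to 3.37 in low-dose lungs, and S100a9 from 5.36 to 6.12 in high-dose and from 5.54 to 5.99 in low-dose lungs. Csf3r, the receptor for the granulocyte growth factor, ranged from 1.79 to 2.50 in high-dose and from 1.60 to 2.50 in low-dose lungs. Of 23 neutrophil genes, 2 were lower and 1, Lcn2, was higher on all 5 slides. Prg2, the major basic protein of eosinophil granules, was at 0.50, 0.81, 0.42, 0.10 and 0.84 in high-dose lungs, against 0.14, 0.00, -0.04, 0.01 and -0.07 in low-dose lungs (0.52 ± 0.12, limma adjusted p = 0.281). Ccr3, the eosinophil's eotaxin receptor, ranged from 0.25 to 0.88 in high-dose and from 0.05 to 0.83 in low-dose lungs.

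Structural lung cells differed little or were lower. All 15 alveolar type 1 genes had a difference below 0, with a median of -0.19, where 9214 of all 20037 genes lay above 0. Only Gprc5a, a retinoic acid-induced receptor, was lower on all 5 slides (-0.22 ± 0.06, limma adjusted p = 0.344), and its second probe gave -0.13. The marker Aqp5 ranged from 3.35 to 3.76 in high-dose and from 3.73 to 3.85 in low-dose lungs (-0.21). Pdpn ranged from 0.02 to 0.46 in high-dose and from 0.02 to 0.40 in low-dose lungs (-0.03). Ager ranged from 3.52 to 4.00 in high-dose and from 3.68 to 4.04 in low-dose lungs (-0.07). The list mean was 0.02 on slide 1 and -0.03 on slide 3, against -0.29, -0.19 and -0.38 on slides 2, 4 and 5, and the list median was -0.11 without slide 5. Cav1, the coat protein of caveolae, was lower on 4 of 5 (-0.36 ± 0.10), with -0.20 by its second probe. Vegfa, the growth factor for vessels, gave -0.21, -0.28 and -0.35 by its 3 probes.

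Type 2 cell genes had a median of -0.01, and ciliated cell genes 0.00 with none higher or lower on all 5 slides. Scd2, a fatty acid desaturase in the type 2 list, was the exception in its tightness, at -0.12, 0.00, -0.04, -0.09 and -0.08 in high-dose lungs, against 0.20, 0.18, 0.28, 0.24 and 0.31 in low-dose lungs (-0.31 ± 0.05, limma adjusted p = 0.228). Slpi, an antiprotease of airway secretions, was higher on 4 of 5 slides (0.63 ± 0.18).

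Endothelial genes had a median of -0.11, with Edn1, the vasoconstrictor endothelin 1, lower on all 5 slides (-0.36 ± 0.09). Lyve1, a lymphatic marker, was lower on 4 of 5 (-0.35 ± 0.10), and Hhip, an inhibitor of hedgehog signalling in the smooth muscle and pericyte list, on 5 of 5 (-0.19 ± 0.06); both were higher after normexp correction, at 0.16 and 0.19, and Hhip by 0.13 on the scanner software's ratio. The smooth muscle list had a median of -0.07, with 3 of 20 members lower on all 5 slides, against 5.67% of all genes. After normexp correction the medians of both lists lay above 0.

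The remaining genes named for a small p in the lower direction belong to no single group. Gsg1l, an auxiliary protein of glutamate receptors, was at 1.04, 0.80, 0.94, 1.22 and 1.20 in high-dose lungs, against 1.35, 1.45, 1.59, 1.67 and 1.93 in low-dose lungs. It did not overlap (-0.55 ± 0.07, limma adjusted p = 0.207). Trpc6, a cation channel of vascular smooth muscle, did not overlap either (-0.45 ± 0.07), nor did Mturn, a regulator of neural and blood cell maturation (-0.40 ± 0.06), whose other probes gave -0.23 and 0.07.

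Crispld2, a secreted protein of the developing lung mesenchyme, was -0.47 ± 0.07, Abca8a, a lipid transporter, -0.37 ± 0.06, and Zfp346, a zinc finger protein that binds double-stranded RNA, -0.43 ± 0.07, each lower on 5 of 5 slides with adjusted p-values of 0.207. After normexp correction, in which the ratios of low-dose dam 27 were compressed to a slope of 0.706 on the other arrays, Trpc6 and Abca8a were at -0.07 and -0.09; with slide 2 left out of that setting they were at -0.39 and -0.29. This setting touched many of the lower genes: 22 of 33 genes named here as lower came more than 1.5 times nearer to 0 or changed sign, against 2 of 59 named as higher. With slide 2 left out of it, 4 of the 33 and 0 of the 59 did.

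Of the 36 lists, the circadian clock list had the largest share of members that were higher or lower on every slide. Of 20 measured, 9 were lower and 3 higher on all 5 slides, where 5.67% and 5.13% of all genes were. The list median was -0.27, and in none of the 20 did the groups separate without overlap. Without slide 5 the median was -0.13. The clock runs on an activating arm, Arntl with Clock or Npas2, and on repressors and output factors that peak at the opposite phase. Dbp, an output factor, was at -0.84, -0.37, 0.62, 1.28 and 0.38 in high-dose lungs, against 0.10, 0.92, 1.16, 1.78 and 1.88 in low-dose lungs. The groups overlapped, and the high-dose dam was the lower of each pair (-0.96 ± 0.15, limma adjusted p = 0.207).

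The relatives of Dbp, Hlf and Tef, were lower by -0.73 ± 0.18 and -0.62 ± 0.17, and Nr1d2, the repressor REV-ERB beta, by -0.58 ± 0.13, each on 5 of 5 slides. Per2, a core repressor, was at -0.27, -0.08, 0.84, 1.11 and 0.17 in high-dose lungs, against 0.45, 0.74, 1.10, 1.57 and 2.27 in low-dose lungs (-0.87 ± 0.24, limma adjusted p = 0.363). Its second probe gave only -0.08, and without slide 5 the difference was -0.57. Nfil3, which opposes Dbp at the same DNA sites, was higher on each slide (0.38 ± 0.06, adjusted p = 0.207). Arntl, the activator also called Bmal1, was at 0.70, 0.68, -0.25, -0.87 and 0.03 in high-dose lungs, against 0.34, -0.26, -0.85, -1.39 and -1.97 in low-dose lungs (0.89 ± 0.22).

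The direction of Arntl was opposite to that of Dbp within each pair, and to that of Per2 by the probe used. Arntl, Per2 and Tef were named after their values were seen. The sources used here do not give the hour of death of each dam, and its part in these differences was not tested. On slide 5 the list's mean difference was -0.63, against -0.04 to -0.20 on the other slides.

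**Figure D4:**
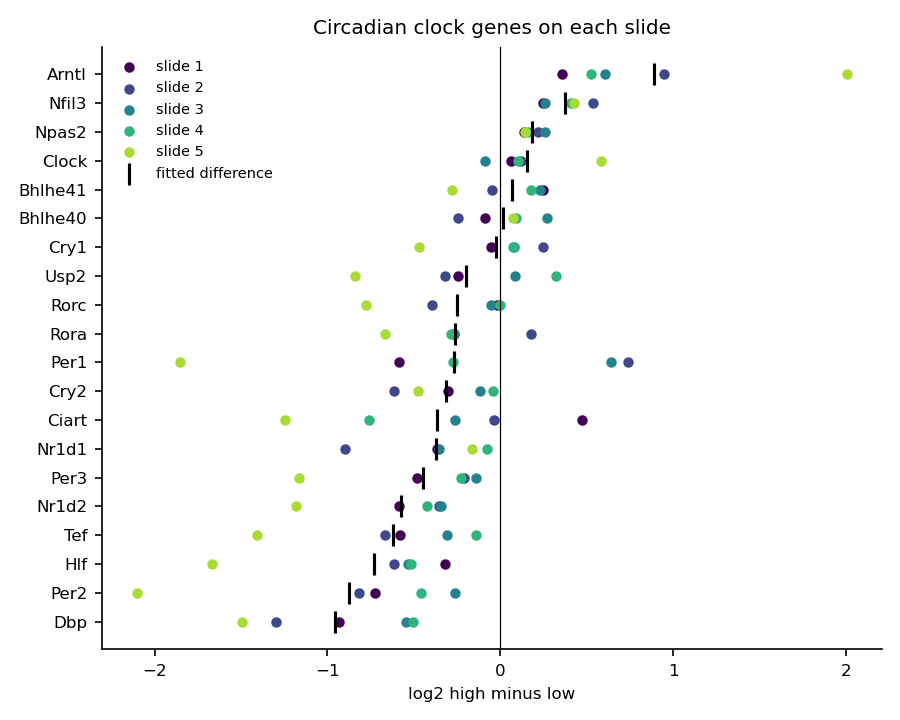
Difference (log2 high minus low) of the 20 measured clock genes on each of the 5 slides (coloured points) with the fitted difference (black bar). Arntl, Nfil3 and Npas2 lie above 0 on all 5 slides and 9 genes, with Dbp lowest at a fitted -0.96, lie below 0; slide 5 holds the widest values for Arntl, Per2, Hlf and Tef.

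Markers of heart, muscle and fat, tissues that adjoin the lung, varied between slides. Heart and striated muscle genes, which include those of the muscle sleeve of the mouse pulmonary veins, had a mean difference of -0.67, -0.51, -0.34, 1.58 and 0.03 on slides 1 to 5, and fat and mammary genes -2.12, -0.57, 0.26, 1.00 and 1.61. None of the 37 and 16 measured members was higher or lower on all 5 slides. Adipoq, the fat cell hormone adiponectin, ranged from -0.28 to 4.64 in high-dose and from 0.54 to 4.73 in low-dose lungs. The part of such tissue in the differences above was not tested.

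As a description without a test, the medium-dose mean lay nearer to the low-dose than to the high-dose mean for 82 of 92 genes named here. The control mean did so for 77, and both for 70. Most of the 92 were named for their difference between high and low dose, and the share over all genes was not computed. Not among the 92 are the markers given as ranges, nor Cxcl10, Cxcl15, Ppbp, Ccl27a, Cd36, Tlr3 and Ighg1. Cxcl5 was -0.03 from the low-dose mean in medium-dose dams and -0.05 in controls, and Trem2 0.20 in medium-dose dams and 0.08 in controls. Noxo1 was 0.03 from it in medium-dose dams and 0.14 in controls, and Mmp12 0.03 in medium-dose dams and -0.13 in controls. LOC628098 was -0.04 from it in medium-dose dams and 0.38 in controls, and U10410 0.21 in medium-dose dams and -0.01 in controls. Cyp1a1 differed in this, since the medium dose was -0.82 and the control -0.21 from the low-dose mean. Camp was 0.65 higher in controls than at the low dose and -0.28 at the medium dose, and Siglecf 0.58 higher in controls, so for these the low-dose group did not resemble the control. Scd2 in controls was -0.31 from the low-dose mean, close to its high-dose value. Other exceptions were Slpi, at 0.63 in medium-dose dams as in high-dose dams, Edn1, at -0.45 in medium-dose dams, and Hspa8, at -0.26 in medium-dose dams and -0.30 in controls. Every medium-dose mean includes dams 49 and 50, which lay on a slide of their own, slide 6. That slide had its own scan day and Feature Extraction 10.1.1.1. Hspa8 was at -1.31 and -1.18 in these dams, and at -0.37, -0.71 and -0.85 in the medium-dose dams of slides 1 to 3. Slpi was at -1.56 in dam 49 and 0.35 in dam 50, and at -1.25, -0.30 and -0.84 in the medium-dose dams of slides 1 to 3. The part of the slide in the medium-dose means was not tested. In controls Ngp was 0.62, Arntl 0.43 and Nfil3 0.28 above the low-dose mean.

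When the spread was estimated from all 20 arrays, with 4 groups and the slide as a block, the same high-minus-low contrast gave 27 genes called higher (0.135%) and 6 called lower (0.0299%) by limma. This fit borrows the control and medium-dose arrays and is an alternative to the one reported above. Cxcl5 (adjusted p = 0.00281), Trem2 (0.00218), Clec5a (0.00659), Lcn2 (0.0147), Il1rn (0.0206), Noxo1 (0.0224), Csf2 (0.0252), Jchain (0.0465) and Tnfrsf17 (0.0325) were called higher in it. Gsg1l (0.0302) and Cyp1a1 (0.0325) were called lower. Camp, Prf1 and Dbp were not, at adjusted p-values of 0.329, 0.116 and 0.0786.

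**Figure D5:**
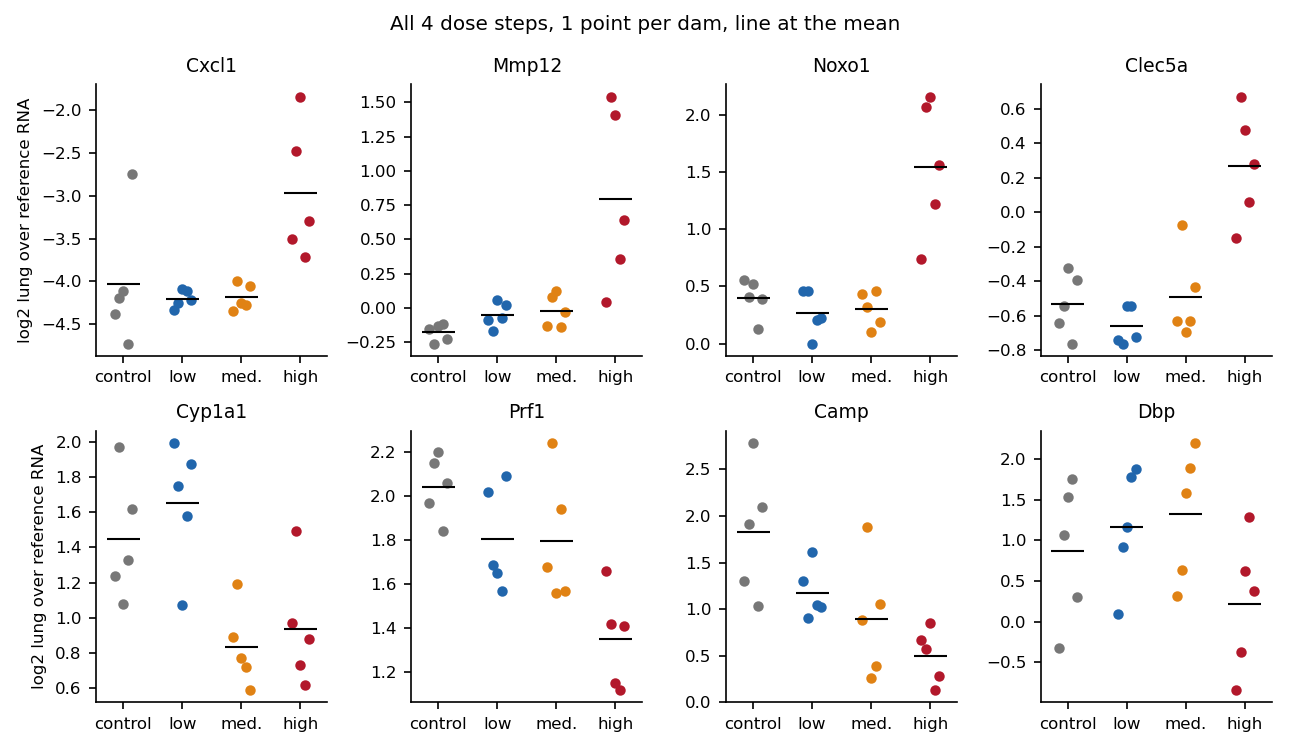
Levels (log2 lung over reference RNA) of 8 genes in every dam of the 4 groups, in order of dose from control to high, with a line at each group's mean. Cxcl1, Mmp12, Noxo1 and Clec5a have their highest mean in the high-dose group; Cyp1a1 is low at both the medium and the high dose, and Camp is highest in controls, 0.65 above the low-dose mean.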

How the data were processed

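The authors deposited, per array, a scanner table whose signals are intensity values and whose dye ratio is on the log10 scale per the file headers, and a value table of log2 lung over reference ratios. The deposited log2 ratios correlate at 0.962 to 0.993 with the log2 ratios of median signals, without background subtraction; the sources used here do not give their normalization. Scanning used Feature Extraction 9.5.1.1 on these arrays per the file headers.

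Outlier spots were left out. Probes were kept when Cy5 was well above background on at least 3 of 5 arrays of a group and a value existed on 8 of 10. The brightest probe stood for each gene. Probes were named through the mouse gene table of GRCm38.p6, by accession (22951), symbol (6659) or synonym (3109), and 8455 kept the files' name. limma 3.58.1 in R 4.3.3 (lmFit, eBayes, two-sided, slide as a fixed block) was tested on simulated data first. Adjusted p-values are Benjamini-Hochberg over all genes.

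Numbers in the titles are not shared between groups; the pairing comes from the shared slide. Of 991 listed genes, 910 were measured. The members and lists were chosen with earlier results of these data known. Named genes are the 10 of smallest p in each direction, since under 5 were called, and up to 4 of smallest p per list. Cxcl10, Ccl27a, Cd36, Tlr3 and Ighg1 were named after their values were seen, as members higher or lower on all 5 slides. Other genes are cell type markers or are marked as chosen after their values were seen. Dams are separate animals. Alternatives changed background, scaling, filter, probes, block and arrays.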

Additional observations from a re-analysis of the deposited data

Results flagged for a closer look

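Within a group of 5 dams, 9 of 184 groups examined held 1 dam whose gap to the nearest of the others exceeded 0.71 of the group's range; chance gives about 1 in 20. Low-dose dam 25 stood high for Ccl8 at 1.83 (the others 0.73 to 1.02), Aif1 at 1.30 (1.08 to 1.13) and C3ar1 at -0.10 (-0.23 to -0.22). High-dose dam 60 stood high for LOC628098 at 2.40 (1.71 to 1.90) and Gzmb at 1.89 (1.68 to 1.74). High-dose dam 63 stood high for Serpina3n at 2.36 (1.73 to 1.90) and Timp1 at -1.09 (-2.43 to -2.10). Low-dose dam 31 stood high for Ear1 at 4.56 (3.98 to 4.07), and low-dose dam 27 low for Crispld2 at 3.30 (3.68 to 3.78).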

How the results depend on the processing

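Against 2 called genes, 0 were called with normexp correction, 0 with the software ratio and 0 in the Cy5 channel alone, by limma, with 995, 750 and 747 higher at an unadjusted p under 0.05. Probes in place of genes gave 4, and all 20 arrays 29 without and 33 with a slide block. Leaving out 1 dam, which removes its slide, gave 0 to 8. Either dam of a slide gives the same fit, so the 26 alternatives counted below hold each of these fits under 2 names. Without the replicate block of slides the count was 2, and U10410 had an adjusted p of 0.0576. The log2 difference of LOC628098 was 1.09 to 1.79 and that of U10410 1.00 to 2.25 over 26 alternatives; they were called in 17 and 14. Of these, normexp correction without slide 2, where low-dose dam 27 had compressed ratios, was chosen after seeing the data and gave 3 calls. Over the named genes, 7 of the values under alternatives changed sign: after normexp correction Cyp2b10 (0.029), Fpr1 (0.076), Lyve1 (0.164) and Hhip (0.193), and on the software ratio Pigr (-0.199), Siglecf (0.455) and Hhip (0.134). The cause was not tested. Of 36 list medians, 19 kept their sign under all 26 alternatives and 17 did not. List medians that moved by at least 1 SD of the list's own 5 slide medians were, with normexp correction, CXC chemokines 0.314, particle uptake 0.287, macrophage identity 0.338, natural killer cells 0.059, dendritic cells 0.128, alveolar type 2 0.109 and iron 0.151. In the Cy5 channel alone these were CXC chemokines 0.275, particle uptake 0.3, macrophage identity 0.296, dendritic cells 0.124 and iron 0.115, and on the software ratio CXC chemokines 0.009, cytokines 0.309, metalloproteinases 0.3 and natural killer cells -0.369. The mean of a gene's probes gave 0.278 for CXC chemokines. Leaving out 1 dam gave medians of -0.001 to 0.215 for CXC chemokines and 0.158 to 0.288 for particle uptake. The number of arrays, and for Cxcl3, Mmp10 and Slc7a11 signal near background, limit the precision.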
